A study of Mus musculus with 13 samples.

Results

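The 39 Hox genes of the mouse were followed in 3 ovaries of untreated wild-type (WT) mice and in 10 MP EPO-GEMM tumors. They were chosen by name, as the rows of the deposited expression table whose symbol is Hox, a cluster letter from a to d and a number, and they made up 39 of the 53465 genes in that table. Of these, 11 belong to the HoxA cluster on chromosome 6, 10 to HoxB on chromosome 11, 9 to HoxC on chromosome 15 and 9 to HoxD on chromosome 2.

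Hox genes encode homeodomain transcription factors that give cells of the embryo their position along the body axis, and many adult tissues keep part of the pattern of the body level at which they arose. Within each cluster the genes point in a single direction and carry a paralog number, and genes of low number are used in anterior regions and genes of high number in posterior ones. In the female reproductive tract, posterior members of the HoxA cluster divide the Müllerian duct, with Hoxa9 used in the oviduct, Hoxa10 and Hoxa11 in the uterus and Hoxa13 at the lower end.

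The WT ovaries came from C57BL/6 mice without treatment. The MP tumors arose in WT C57BL/6 females whose left ovary was injected, at an age of 8 to 12 wk, with vectors expressing Cas9 and an sgRNA to Trp53 and a transposon vector for MYC, and was then electroporated. Electroporation does not select a cell type and the tumors were oligoclonal by the study's own sequencing, so each MP library is a mix of tumor clones and host cells. The paper also limited editing to epithelial cells positive for cytokeratin 8. It reports tumors of similar histology and transcription from them, and concludes that the tumors are of epithelial origin. RNA was taken from whole tissue, and in such bulk samples fewer cells of a type and less RNA per cell cannot be told apart. Levels are given as TPM, a unit scaled for gene length whose sum over all genes is 1000000 in every library. A TPM is therefore a share, and it also falls when other genes take more of the total.

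Depth, worked back from the smallest step of the TPM values, was 31445004 to 64013840 reads per WT ovary and 3892690 to 19906507 reads per MP tumor, and a single read in a 1 kb gene stood for 0.0513 to 0.790 TPM. The labels' descriptions hold a number code, taken here as the batch, although the labels do not say what it stands for. WT ovaries 1 to 3 and MP tumors 1 to 3 share 1 code (batch 1), MP tumors 4 to 6 another (batch 2) and MP tumors 7 to 10 another (batch 3). WT and MP libraries thus share a batch in batch 1 alone. MP tumor 2 stood apart in that 10 genes took 55.1% of its TPM. Trp53, the edited gene, lay between 80.7 and 85.4 TPM in WT ovaries, between 4.30 and 26.0 TPM in MP tumors 1 to 9 and at 187 TPM in MP tumor 10 (log2 fold change -2.23, SE 0.77, limma adjusted P = 0.058), and the mouse Myc row between 126 and 129 TPM in WT ovaries and between 7.09 and 419 TPM in MP tumors. Whether the Myc row takes up reads of the transposon's MYC was not tested.

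WT ovaries carried a steady Hox pattern, led by Hoxd8, Hoxd9 and Hoxd10 and by the middle of HoxC. The summed TPM of the 39 genes was 302, 264 and 343 in WT ovaries 1, 2 and 3. HoxD held 54.8 to 57.3% of that sum, HoxC 33.4 to 34.9%, HoxB 6.58 to 7.87% and HoxA 2.37 to 2.74%. Between 16 and 18 members reached 1 TPM in a WT ovary, and 16 reached it in all 3. Members of paralog groups 1 to 3 stayed under 1 TPM in every WT ovary (0 of 8 reached it), and of the 9 members of groups 11 to 13 only Hoxd11 reached it, in WT ovary 3 at 2.28 TPM.

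MP tumors shared a HoxD sum below all WT ovaries but otherwise had no common Hox pattern. Their summed Hox TPM ran from 3.92 in MP tumor 6 to 551 in MP tumor 9, with a median of 95.3, and lay below all WT ovaries in 8 tumors and above them in 2, MP tumors 8 and 9. Between 1 member (MP tumor 6) and 23 members (MP tumor 8) reached 1 TPM, with a median of 10.5. Over the 10 tumors 7 different genes were the highest member. Hoxd8 was highest in MP tumors 1, 3 and 10, Hoxc8 in MP tumors 2 and 9, and Hoxc10, Hoxb9, Hoxc4, Hoxd9 and Hoxa5 in MP tumors 4, 5, 6, 7 and 8. HoxC had the largest sum in 6 tumors, HoxD in 3, HoxB in 1 and HoxA in 0.

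**Figure D1:**
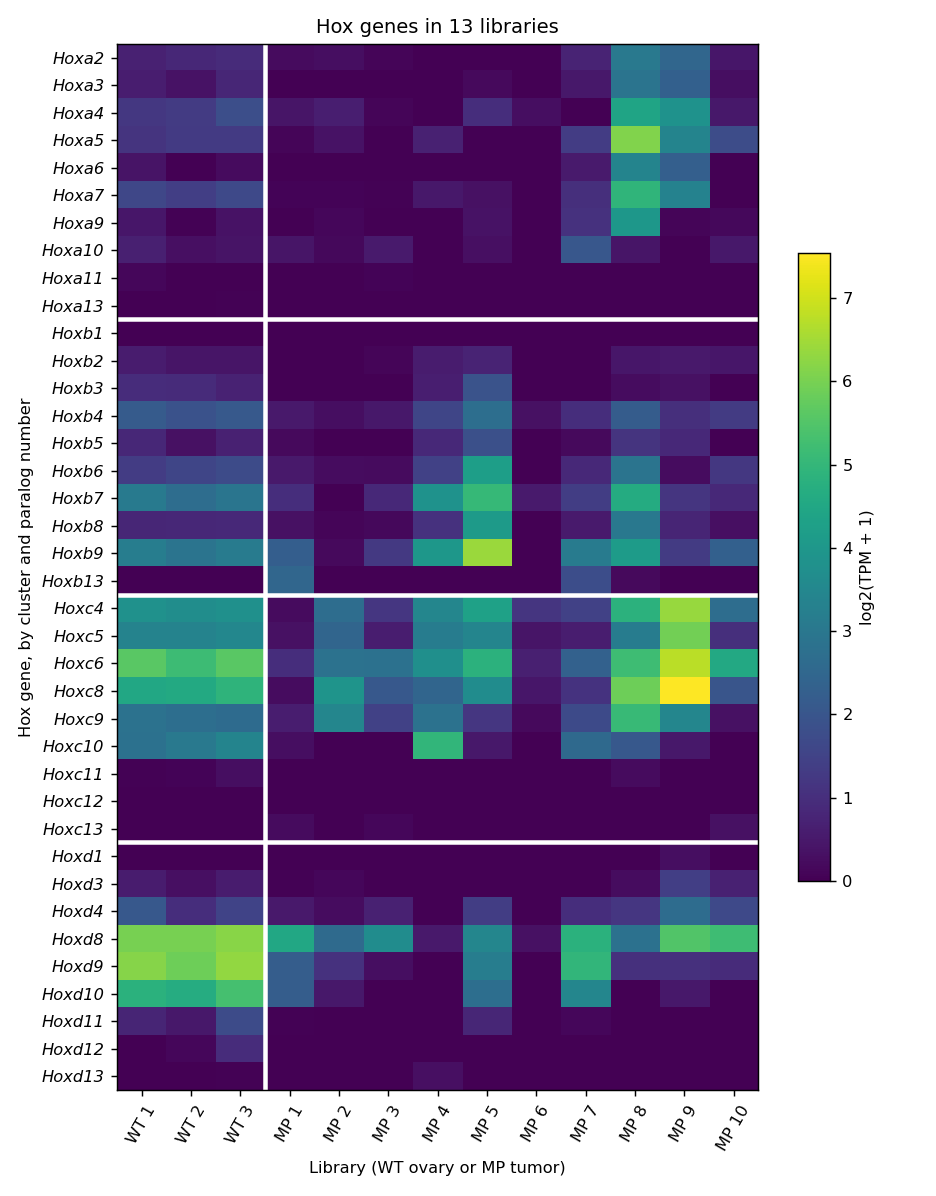
Levels of the Hox genes reported here (rows, ordered by cluster and paralog number) in 3 WT ovaries and 10 MP tumors (columns), as log2(TPM + 1) in color. The WT columns look alike, with Hoxd8, Hoxd9, Hoxd10, Hoxc6 and Hoxc8 brightest, while MP tumors 5, 8 and 9 each have a bright block in HoxB, HoxA or HoxC and MP tumor 6 is dark throughout.

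**Figure D2:**
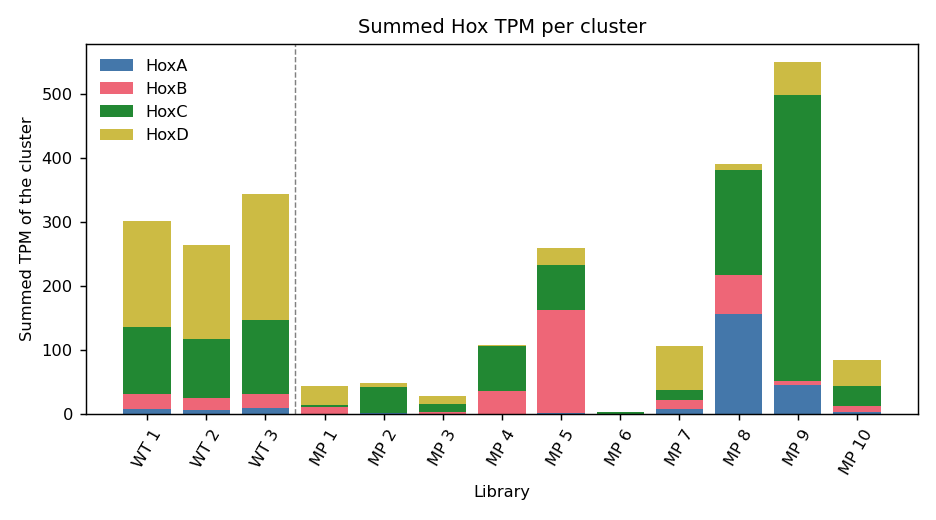
Summed TPM of the members of each Hox cluster in each library, stacked by cluster. HoxD makes up over 54% of each WT bar, and the MP bars range from 3.92 to 551 TPM with HoxB leading in MP tumor 5 and HoxC leading in MP tumors 8 and 9.

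Of the 39 members, 18 reached 1 TPM in 3 or more libraries and were tested among 17277 genes with limma on log2(TPM + 1), with P values adjusted by the Benjamini-Hochberg method over all of them and a threshold of 0.05. In this fit 2 members, Hoxd9 and Hoxd10, were lower in MP tumors and 0 were higher, where 14.3% of all tested genes were called lower, 2.51% higher and 16.8% in either direction. The log2 fold change was negative for 16 of the 18 members, against 69.9% of all tested genes, and 4 had an unadjusted P under 0.05, against 33.0% of all. The median log2 fold change of the 18 members was -0.92 and that of all 17277 genes was -0.58. The shares called and of low P in this fit were thus no larger than those over all genes, which did not hold in every alternative. Without WT ovary 1, 2 or 3 again 2 of 18 members were called lower, beside 604 of 16717, 679 of 16771 and 683 of 16811 genes. Within batch 1 it was 17 of 18 members, beside 57.3% of genes. The filter passed 1 member on the WT ovaries with fewer than 3 MP tumors at 1 TPM, and 2 members on the tumors with fewer than 3 WT ovaries there. The other 21 members were not tested, and of them 10 reached 1 TPM in no library.

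**Figure D3:**
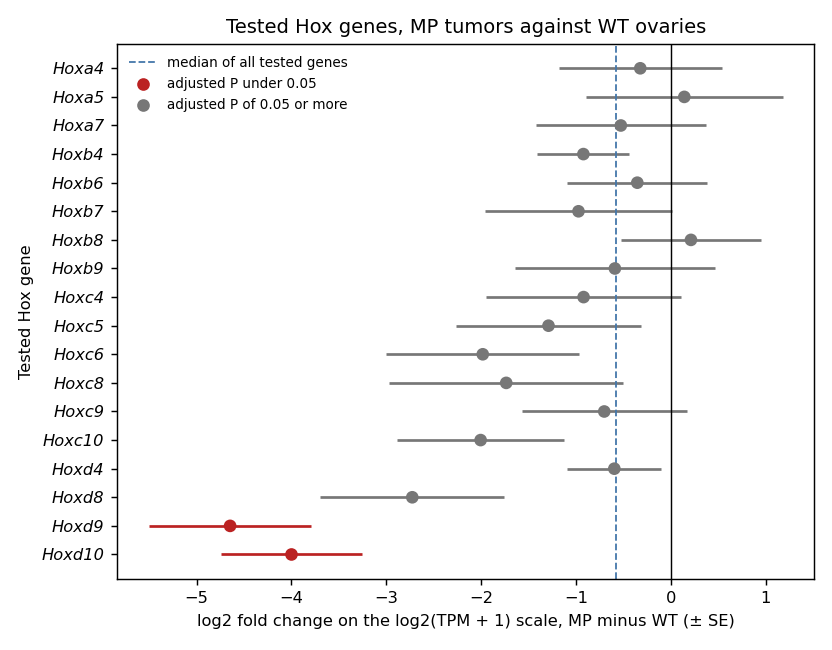
Log2 fold change of each tested Hox gene on the log2(TPM + 1) scale, 10 MP tumors minus 3 WT ovaries, with its SE as bars. Hoxd9 (-4.65) and Hoxd10 (-3.999) pass the threshold, and the dashed line marks the median of all tested genes (-0.58).

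HoxD was the cluster in which every tumor lay below every WT ovary. Its summed TPM was 165, 147 and 197 in WT ovaries 1, 2 and 3 and between 0.259 and 68.8 in MP tumors, with a median of 19.4. In WT ovaries nearly all of it came from Hoxd8, Hoxd9 and Hoxd10, neighbors in the cluster that pattern the trunk, the limb and the lumbar region. For each of these 3 members all 10 MP tumors were below all 3 WT ovaries. That is 3 of the 18 tested Hox members, a share near the 16.4% of all tested genes for which this held. No member had all 10 tumors above all WT ovaries, against 3.02% of all tested genes.

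Hoxd9 (ENSMUSG00000043342, GRCm38 chromosome 2, plus strand, 74697727 to 74700208) was the most abundant Hox gene of WT ovaries 1 and 3. Its level was 70.6, 57.7 and 79.2 TPM in WT ovaries 1, 2 and 3 and ran from 0 to 30.3 TPM in MP tumors, with a median of 1.06. MP tumor 7 was the highest at 30.3 TPM, MP tumor 5 followed at 8.14 TPM, and the other 8 tumors were at 3.65 TPM or less. The WT mean of 69.1 TPM ± 10.8 (SD, n = 3) was 65.0 times the MP median and 2.28 times the highest tumor. The log2 fold change was -4.65 (SE 0.86, limma adjusted P = 0.0017), or -4.07 relative to the median of all tested genes. MP tumors 4 and 6 had no read of Hoxd9, which puts their level at least 85.9-fold and 139-fold lower than the WT mean if 3 reads are taken as the limit in each library.

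Hoxd10 (ENSMUSG00000050368, chromosome 2, plus strand, 74691924 to 74695105), which acts in the lumbar spinal cord and the hindlimb, stood at 27.1, 24.6 and 39.1 TPM in WT ovaries 1, 2 and 3. In MP tumors it ran from 0 to 10.0 TPM with a median of 0.198. MP tumors 7, 5 and 1 were highest, at 10.0, 5.66 and 3.68 TPM, and 5 tumors had no read. The WT mean was 30.3 TPM ± 7.77 (SD, n = 3), 3.03 times the highest tumor. The log2 fold change was -3.999 (SE 0.74, limma adjusted P = 0.0017), or -3.42 relative to the median of all tested genes. In the 5 tumors without a read the level was at least 28.5-fold (MP tumor 10) to at least 161-fold (MP tumor 3) lower than the WT mean, with 3 reads per library as the limit.

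Hoxd8 (ENSMUSG00000027102, chromosome 2, plus strand, 74704615 to 74707933) reached 1 TPM in more of the tumors than Hoxd9 or Hoxd10 (8, against 6 and 3). It was at 63.2, 62.7 and 72.9 TPM in WT ovaries 1, 2 and 3, and from 0.259 to 43.7 TPM in MP tumors with a median of 10.9. MP tumors 9, 10, 7 and 1 had 43.7, 36.1, 27.4 and 21.95 TPM, and MP tumors 4 and 6 had 2 reads each. The WT mean of 66.3 TPM ± 5.77 (SD, n = 3) was 6.10 times the MP median and 1.52 times the highest tumor. The log2 fold change of -2.73 (SE 0.97) missed the threshold with a limma adjusted P of 0.065. It passed without MP tumor 9 (log2 fold change -2.96, adjusted P = 0.036) or MP tumor 10 (-2.93, adjusted P = 0.044), the tumors with the highest Hoxd8. In these fits 3238 of 16895 and 2956 of 16957 genes were called lower, against 2463 of 17277. Hoxd8 also passed in the limma-voom fit on the reads worked back (-2.71, adjusted P = 0.022, with 23.4% of all genes called lower). The threshold was missed without WT ovary 1, 2 or 3 (limma adjusted P = 0.195, 0.185 and 0.21), with median-of-ratios scaling (0.155) and with quantile normalization (0.10).

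In several tumors Hoxd8 stood well above its 5′ neighbors. MP tumor 9 held Hoxd8 at 43.7 TPM beside Hoxd9 at 1.06 TPM (6 reads, exact Poisson 95% interval 0.388 to 2.30) and Hoxd10 at 0.414 TPM (2 reads), and MP tumor 10 held Hoxd8 at 36.1 TPM beside Hoxd9 at 0.903 TPM (3 reads, interval 0.186 to 2.64). In WT ovaries the levels of Hoxd8 and Hoxd9 lay within 1 range, 57.7 to 79.2 TPM. MP tumor 7 was the single tumor with Hoxd9 above Hoxd8, at 30.3 and 27.4 TPM, an order also seen in WT ovaries 1 and 3. These Poisson intervals and the limits set by 3 reads cover counting error only.

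The members on either side of this block were low. Hoxd4, which is used in the hindbrain and neck, was at 3.20, 0.994 and 1.88 TPM in WT ovaries 1, 2 and 3 and from 0 to 5.36 TPM in MP tumors, with a median of 0.80. MP tumor 9 lay above every WT ovary and 6 tumors lay below, and the log2 fold change was -0.60 (SE 0.50, limma adjusted P = 0.40). Hoxd3 reached 1 TPM in MP tumor 9 alone, at 1.62 TPM. Its exons share 62.3% of their bases on the same strand with Hoxd4 and the gene Gm28230, and those of Hoxd4 share 52.3%, so reads of this pair are uncertain. Hoxd11, Hoxd12 and Hoxd13, the digit and genital tubercle genes, reached at most 2.28, 0.931 and 0.0207 TPM in WT ovaries and at most 0.751, 0 and 0.231 TPM in MP tumors. Hoxd1 was read in MP tumor 9 only, at 0.202 TPM.

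Sequences upstream of Hoxd9 and Hoxd10 are shown because these are the members past the threshold. Those of Hoxa5, Hoxb8 and Hoxc4 are shown because these genes stood above every WT ovary in MP tumors 8, 5 and 9 and had a RefSeq sequence at hand. None was at hand for Hoxb9 and Hoxc8, the highest members of MP tumors 5 and 9. Each is the 150 bases before a RefSeq start on GRCm38.p6, written 5′ to 3′ on the gene's strand with every CG dinucleotide in capitals. The positions are chr2:74697613-74697762 (plus strand) for Hoxd9, chr2:74691741-74691890 (plus) for Hoxd10, chr6:52204588-52204737 (minus) for Hoxa5, chr11:96281755-96281904 (plus) for Hoxb8 and chr15:103034245-103034394 (plus) for Hoxc4. For Hoxd9 and Hoxc4 this RefSeq start lies inside the span that the table gives the gene.
Hoxd9: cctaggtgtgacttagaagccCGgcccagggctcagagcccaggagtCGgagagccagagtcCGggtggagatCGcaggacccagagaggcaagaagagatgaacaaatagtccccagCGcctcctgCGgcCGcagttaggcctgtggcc
Hoxd10: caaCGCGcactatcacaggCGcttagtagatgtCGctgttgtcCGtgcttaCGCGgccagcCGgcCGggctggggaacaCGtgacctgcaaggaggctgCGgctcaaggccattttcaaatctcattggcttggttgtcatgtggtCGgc
Hoxa5: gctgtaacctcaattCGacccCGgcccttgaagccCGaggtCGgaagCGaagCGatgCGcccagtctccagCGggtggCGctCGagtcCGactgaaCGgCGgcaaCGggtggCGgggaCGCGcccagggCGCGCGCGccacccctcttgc
Hoxb8: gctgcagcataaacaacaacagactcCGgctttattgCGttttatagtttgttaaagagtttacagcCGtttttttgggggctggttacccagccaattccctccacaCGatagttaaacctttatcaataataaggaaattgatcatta
Hoxc4: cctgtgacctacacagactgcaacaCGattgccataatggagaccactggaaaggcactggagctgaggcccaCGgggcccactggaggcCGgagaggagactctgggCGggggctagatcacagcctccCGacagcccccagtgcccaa
The stretches hold 7, 12, 21, 4 and 5 CG dinucleotides in that order, so the 2 members called lower sit between the others.

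RefSeq windows of 300 bases, from 250 before to 50 after a start, were at hand for 22 of the 39 members (24 windows) among 32851 windows of all genes. The Hox windows held a median of 14.5 CG dinucleotides (range 4 to 45) and all windows a median of 7. The letters TGATTNAT, a site of Hox proteins with their Pbx partner, were found on either strand in 2 Hox windows (8.33%), those of Hoxa2 and Hoxd11, and in 3.22% of all windows. The letters TATAAA were found in 4 Hox windows (16.7%) and in 13.6% of all windows. No member's group difference can be read from these letters.

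HoxC held the second largest share in WT ovaries and the largest single values in the tumors. Its summed TPM was 105, 92.2 and 115 in WT ovaries 1, 2 and 3 and between 2.52 (MP tumor 1) and 446 (MP tumor 9) in MP tumors, with a median of 36.3. MP tumors 8 and 9 lay above every WT ovary and the other 8 lay below. In every WT ovary the expressed run went from Hoxc4 to Hoxc10, 6 neighbors at 1 TPM or more, and stopped there.

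Hoxc6, a gene of the upper trunk, was highest of the cluster in WT ovaries, at 48.1, 34.9 and 48.0 TPM, and ran from 0.590 to 108 TPM in MP tumors with a median of 9.41. MP tumor 9 was above all WT ovaries, MP tumor 8 was within their range at 36.1 TPM and 8 tumors were below. The log2 fold change was -1.98 (SE 1.02, limma adjusted P = 0.18). Hoxc8, which sets the identity of the thoracic spine, was at 22.2, 22.96 and 28.6 TPM in WT ovaries and from 0.197 to 185 TPM in MP tumors with a median of 3.84. MP tumors 9 and 8, at 185 and 57.6 TPM, were above all WT ovaries and the other 8 were below. The value of 185 TPM was the highest of any Hox gene in any library, 7.53 times the WT mean, and the log2 fold change over all tumors was -1.74 (SE 1.23, adjusted P = 0.33).

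Hoxc4 lay at 13.1, 12.0 and 12.7 TPM in WT ovaries and from 0.163 to 82.2 TPM in MP tumors with a median of 5.49, and MP tumors 9, 8 and 5 were above all WT ovaries. Hoxc5 lay at 9.33, 9.35 and 10.1 TPM in WT ovaries and from 0.270 to 60.3 TPM in MP tumors with a median of 2.76, and MP tumor 9 alone was above. Both belong to the neck and upper trunk end of the pattern, and neither differed by the test (log2 fold changes -0.92, SE 1.03, limma adjusted P = 0.54, and -1.29, SE 0.98, adjusted P = 0.36).

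Hoxc9 and Hoxc10, toward the lumbar end, were highest in different tumors. Hoxc9 was at 6.12, 5.63 and 5.21 TPM in WT ovaries and from 0.146 to 32.7 TPM in MP tumors with a median of 1.97. MP tumors 8, 9, 2 and 4 were above all WT ovaries, although MP tumor 4 was so by less than 0.01 TPM, and 6 were below (log2 fold change -0.70, SE 0.87, limma adjusted P = 0.58). Hoxc10, a hindlimb gene, was at 6.03, 7.34 and 9.62 TPM in WT ovaries and from 0 to 30.0 TPM in MP tumors with a median of 0.306. MP tumor 4 alone was above, at 3.92 times the WT mean and 4.90 times its own Hoxc9, and the other 9 were below. The log2 fold change was -2.01 (SE 0.88, adjusted P = 0.13), and -2.43 with an adjusted P of 0.0085 without MP tumor 4. Hoxc5 and Hoxc10 share exon bases on the same strand, 5.37% of Hoxc5 and 8.70% of Hoxc10. Hoxc11, Hoxc12 and Hoxc13 stayed at or under 0.261 TPM in every library, and Hoxc12 had no read.

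The end of the HoxC run differed among tumors that expressed the cluster. MP tumor 9 had Hoxc9 18.4-fold below Hoxc8 (10.1 against 185 TPM). MP tumor 8 had Hoxc10 10.1-fold below Hoxc9 (3.25 against 32.7 TPM). MP tumor 4 had its highest member at Hoxc10 and 0 TPM at Hoxc11, and MP tumor 7 also had Hoxc10 as its highest HoxC member, at 4.97 TPM. MP tumor 2 had HoxC at 81.3% of its Hox sum, with Hoxc8 and Hoxc9 at 14.0 and 9.92 TPM and no read of Hoxc10.

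HoxB was low in WT ovaries and highest in MP tumor 5. Its summed TPM was 23.7, 19.1 and 22.6 in WT ovaries 1, 2 and 3 and between 0.602 and 161 in MP tumors with a median of 9.46, and MP tumors 5, 8 and 4 (161, 59.8 and 35.0 TPM) were above all WT ovaries. In MP tumor 5 the cluster made up 62.0% of the Hox sum and 7 neighbors, Hoxb3 to Hoxb9, were at 1 TPM or more and above all WT ovaries.

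Hoxb9, which patterns the ribs, was highest of the cluster in WT ovaries, at 8.21, 6.54 and 7.87 TPM, and ran from 0 to 83.5 TPM in MP tumors with a median of 3.86. MP tumor 5 was at 11.1 times the WT mean, MP tumors 8 and 4 were also above all WT ovaries at 16.8 and 14.9 TPM, and 6 tumors were below. Hoxb7 was at 7.501, 5.48 and 6.68 TPM in WT ovaries and from 0 to 32.3 TPM in MP tumors with a median of 1.10, with the same 3 tumors above and 7 below. The log2 fold changes of the 2 genes were -0.59 (SE 1.05, limma adjusted P = 0.71) and -0.97 (SE 0.98, adjusted P = 0.49).

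Hoxb6 was at 1.54, 1.99 and 2.27 TPM in WT ovaries and from 0 to 17.7 TPM in MP tumors with a median of 0.633. Hoxb8, a gene of myeloid progenitors and of the trunk, was at 0.741, 0.783 and 0.818 TPM in WT ovaries and from 0 to 16.2 TPM in MP tumors with a median of 0.367. Hoxb4, known from blood stem cells, was at 3.52, 2.75 and 3.34 TPM in WT ovaries and from 0.210 to 5.55 TPM in MP tumors with a median of 0.996. For all 3 genes MP tumor 5 was highest and MP tumor 8 was also above every WT ovary, Hoxb4 by 3.56 against 3.52 TPM. None passed the threshold, with limma adjusted P of 0.75, 0.86 and 0.195 and log2 fold changes of -0.35 (SE 0.74), 0.21 (SE 0.74) and -0.92 (SE 0.49).

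Hoxb13, the most posterior gene of the cluster and known from the prostate and the tail, had no read in any WT ovary. MP tumor 1 held it at 4.67 TPM (74 reads, exact Poisson 95% interval 3.66 to 5.86) and MP tumor 7 at 2.43 TPM (13 reads, interval 1.30 to 4.16). Against the level that 3 reads would give in WT ovary 2, the shallowest of the WT ovaries, these are at least 31.6-fold and 16.5-fold higher. MP tumor 8 had 2 reads of Hoxb13 and the other 7 tumors had none, and the member was not tested. Among the remaining members of the cluster, Hoxb3 reached 2.79 TPM and Hoxb5 2.55 TPM in MP tumor 5, Hoxb2 stayed at or under 0.680 TPM and Hoxb1 had no read in any library. Hoxb3 has 52.9% and Hoxb2 27.3% of its exon bases opposite the antisense gene Hoxb3os.

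HoxA was the smallest share of the WT pattern and was high in MP tumors 8 and 9. Its summed TPM was 7.71, 6.26 and 9.40 in WT ovaries 1, 2 and 3. In MP tumors 8 and 9 it was 157 and 46.4 TPM, above all WT ovaries, in MP tumor 7 it was 8.39 TPM, within their range, and in the other 7 it was between 0.223 and 3.89 TPM. MP tumor 8 expressed all members from Hoxa2 to Hoxa9 at 1 TPM or more, and MP tumor 9 all from Hoxa2 to Hoxa7, whereas the longest such run in a WT ovary was 2.

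Hoxa5, needed for the lung and the neck vertebrae, was at 1.18, 1.45 and 1.45 TPM in WT ovaries and from 0 to 67.8 TPM in MP tumors with a median of 0.449. MP tumor 8 was at 49.9 times the WT mean (779 reads), and MP tumors 9, 10 and 7 were above all WT ovaries at 9.62, 2.40 and 1.54 TPM while 6 were below. Hoxa7 was at 2.06, 1.62 and 2.19 TPM in WT ovaries and from 0 to 29.5 TPM in MP tumors with a median of 0.169, and Hoxa4 at 1.31, 1.498 and 2.48 TPM in WT ovaries and from 0 to 19.98 TPM in MP tumors with a median of 0.376. For both, MP tumors 8 and 9 were above all WT ovaries and the other 8 below. None of these 3 tested members passed the threshold (log2 fold changes 0.14, -0.53 and -0.32 with SE 1.04, 0.90 and 0.86, limma adjusted P = 0.93, 0.69 and 0.81).

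Hoxa2 and Hoxa3, genes of the hindbrain and the pharyngeal arches, were under 1 TPM in every WT ovary, at 0.607, 0.795 and 0.896 TPM and at 0.515, 0.289 and 0.751 TPM. In MP tumors Hoxa2 ran from 0 to 7.27 TPM with a median of 0.180 and Hoxa3 from 0 to 6.44 TPM with a median of 0.0657. MP tumors 8 and 9 were the highest for both, and no other tumor was above the WT range. Hoxa6 was at 0.308, 0 and 0.176 TPM in WT ovaries and from 0 to 9.53 TPM in MP tumors with a median of 0, and 7 tumors had no read.

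The edge of the HoxA run fell between different genes in MP tumors 8 and 9. Hoxa9, the oviduct member, was at 0.374, 0.0389 and 0.285 TPM in WT ovaries and from 0 to 15.0 TPM in MP tumors with a median of 0.0821. MP tumor 8 held 15.0 TPM (512 reads, exact Poisson 95% interval 13.7 to 16.3) and MP tumor 9 0.0674 TPM (1 read, interval 0.00171 to 0.376), although Hoxa7 next to it was at 9.16 TPM in MP tumor 9. In MP tumor 8 Hoxa10 was at 0.350 TPM (7 reads, interval 0.141 to 0.720), 42.9-fold below Hoxa9. MP tumor 7 had Hoxa5, Hoxa7, Hoxa9 and Hoxa10 at 1.54, 1.00, 1.11 and 3.16 TPM, and its Hoxa10, a gene of the uterus, was at 8.32 times the WT mean. Hoxa11 and Hoxa13, used further down the tract, stayed at or under 0.0883 TPM in all 13 libraries.

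**Figure D4:**
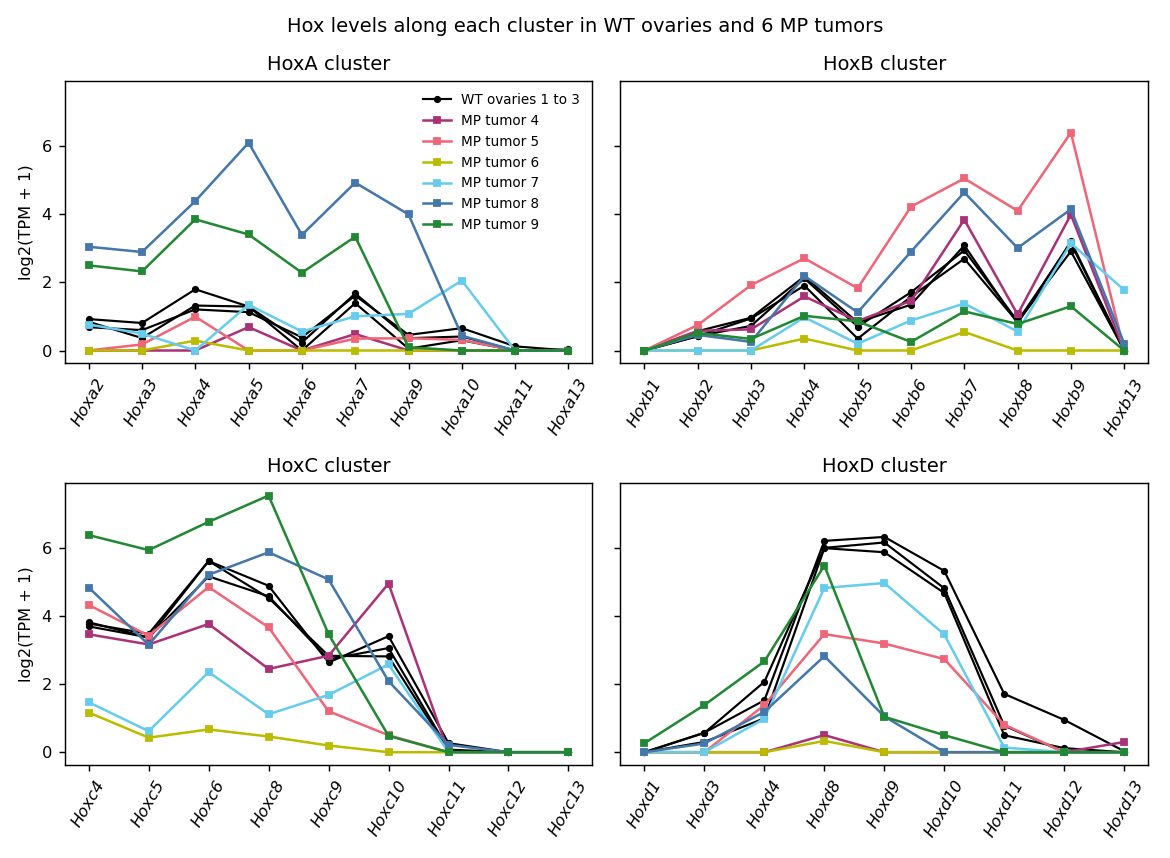
Levels along each Hox cluster as log2(TPM + 1), with genes in order of paralog number, in the 3 WT ovaries (black) and in 6 MP tumors (color). The WT lines run together, MP tumor 8 leads from Hoxa2 to Hoxa9 and drops at Hoxa10, MP tumor 5 leads in HoxB, MP tumor 9 leads in HoxC up to Hoxc8, and all 6 tumors lie under the WT lines from Hoxd8 to Hoxd10.

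Single tumors can be described by the members above every WT ovary at 1 TPM or more, set beside the same share of the 22043 genes that reached 1 TPM in some library, 29 members among them. There were 17 such members in MP tumor 8 (8 HoxA, 6 HoxB and 3 HoxC), where 27.5% of these genes were above, and 14 in MP tumor 9 (7 HoxA, 5 HoxC and 2 HoxD), where 38.4% were. MP tumor 5 had 8 (7 HoxB and 1 HoxC, 32.6% of genes) and MP tumor 4 had 5 (3 HoxB and 2 HoxC, 21.6%). MP tumor 7 had 4 (21.6%), MP tumors 1, 2 and 10 had 1 each (19.7%, 9.30% and 37.1%) and MP tumors 3 and 6 had 0 (15.9% and 24.0%). Over all tumors, 25 members were above all WT ovaries at 1 TPM or more in some tumor, against 76.1% of these genes, and 19 were so at 5 TPM or more, against 50.7%. MP tumors 5, 8 and 9 each held the highest tumor value of 9 members, and the same share over all genes was not computed. Some of these values rest on few reads, as for Hoxd11 in MP tumor 5 (4 reads), Hoxc11 in MP tumor 8 (2 reads) and Hoxd1 in MP tumor 9 (1 read).

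The opposite count, of tested members below every WT ovary, was 18 of 18 in MP tumors 1, 3 and 6, and the same count over all tested genes was 67.1%, 71.0% and 57.9% in those tumors. It was 17 in MP tumor 2 (80.9% of all tested genes), 16 in MP tumors 7 and 10 (62.6% and 45.3%), 12 in MP tumor 4 (62.2%), 10 in MP tumor 5 (45.6%), 9 in MP tumor 9 (42.4%) and 5 in MP tumor 8 (55.9%). MP tumor 6 was close to silent for Hox genes. It had 27 reads over 9 members at a depth of 8089330 reads, while WT ovary 2 had 5906 Hox reads at a depth of 31445004, and its highest member, Hoxc4, was at 1.24 TPM (9 reads, exact Poisson 95% interval 0.569 to 2.36). MP tumor 5, at less than that depth, had 798 Hox reads.

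More members were called lower within batch 1. With MP tumors 1 to 3 against the 3 WT ovaries, 17 of the 18 members were called lower (limma adjusted P), where 57.3% of all tested genes were called lower and 63.7% in either direction, and all 3 tumors were below all 3 WT ovaries for 17 members, against 61.8% of all genes. The median log2 fold change was -2.07 for the 18 members and -1.19 for all genes. Hoxd9 was at -4.93 (adjusted P = 9.8e-05) and Hoxd10 at -4.04 (adjusted P = 0.00053) in this fit. With batch as a covariate 6 members were called lower (Hoxb4, Hoxc6, Hoxc10, Hoxd8, Hoxd9 and Hoxd10), where 49.4% of all genes were, with 5.17% higher and 54.6% in either direction. The tumors with the highest HoxA, HoxB and HoxC values, MP tumors 5, 8 and 9, belong to batches 2 and 3, which hold no WT ovary. No tumor of batch 1 was above all WT ovaries in the HoxA, HoxB or HoxC sum. Within the other batches tumors differed, with HoxA sums of 8.39 and 3.89 TPM in MP tumors 7 and 10 beside 157 and 46.4 TPM in MP tumors 8 and 9 of batch 3, and HoxB sums of 35.0, 161 and 0.737 TPM in MP tumors 4, 5 and 6 of batch 2.

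The balance of paralog groups differed among tumors with high and with low Hox sums alike. Groups 4 to 8 held 56.6 to 60.1% of the Hox sum in WT ovaries, 78.2% and 95.3% in MP tumors 8 and 9, which had the highest sums, 59.9% in MP tumor 5, and 96.3%, 91.1% and 86.0% in MP tumors 6, 10 and 3. The share in MP tumor 6 rests on 27 Hox reads, of which 1 (Hoxc9) was in groups 9 to 13. Groups 9 to 13 held 38.8 to 42.2% in WT ovaries and 17.8% and 2.44% in MP tumors 8 and 9. The share of groups 9 to 13 lay below all WT ovaries in 8 of 10 tumors, although in MP tumors 1 and 5, at 38.7% and 38.6%, by little, and above them in MP tumors 4 and 7 at 47.6% and 58.5%. Groups 1 to 3 held 1.10 to 1.24% in WT ovaries and up to 4.03%, in MP tumor 8.

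No noncoding RNA from within the clusters passed the test. Of 18 noncoding genes listed, 1 of which (Mir708, with no read) lies on chromosome 7 outside the clusters, 5 were tested, with a median log2 fold change of -0.66, and 0 were called in either direction. Hotairm1, a noncoding RNA of HoxA, was at 0.591, 0.424 and 1.15 TPM in WT ovaries and from 0 to 16.1 TPM in MP tumors with a median of 0.55, and MP tumors 8 and 9 were the highest at 16.1 and 7.71 TPM. Hoxaas2 and Hoxaas3, antisense RNAs of HoxA, were at most 0.137 and 0.675 TPM in WT ovaries and reached 12.8 and 10.1 TPM in MP tumor 8 and 1.57 and 2.34 TPM in MP tumor 9. Hoxaas3 lies opposite 20.4% of the exon bases of Hoxa7, and Hoxa3 has 25.4% of its exon bases opposite such genes. Whether the counting used strand is not given in the sources used here, so these reads and those of the overlapped members cannot be told apart. Hoxd3os1, antisense to Hoxd3 and Hoxd4, was at 5.77, 4.84 and 7.34 TPM in WT ovaries and from 0 to 7.03 TPM in MP tumors, where MP tumors 3 and 7 held it at 7.03 and 3.45 TPM without a read of Hoxd3. Hotair, of HoxC, stayed at or under 0.0897 TPM and Hottip, of HoxA, had no read.

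The clusters also hold microRNAs, and 2 of their families are shown here because they lie in the clusters that led single tumors. The miR-196 family lies beside group 9 members and the miR-10 family beside group 4 members, and both are known to act on Hox transcripts. Mature sequences from RefSeq (GRCm38.p6) are written 5′ to 3′ with the seed, bases 2 to 8, in capitals.
miR-196a-5p: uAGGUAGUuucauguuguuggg
miR-196b-5p: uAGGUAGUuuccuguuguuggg
miR-10a-5p: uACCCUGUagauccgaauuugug
miR-10b-5p: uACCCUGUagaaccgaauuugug
Within each family the seeds are the same. The libraries were made from polyA RNA, so a row of a microRNA gene counts fragments of its precursor transcript and not the mature form. Mir196a-1, of HoxB, had 59, 34 and 96 reads in WT ovaries 1, 2 and 3 (38.9, 36.2 and 48.3 TPM) and 0 to 58 reads in MP tumors, with the most in MP tumor 8 (92.9 TPM) and the highest TPM in MP tumor 5 (124 TPM from 16 reads). Its log2 fold change was -1.68 (SE 1.46, limma adjusted P = 0.43). Mir10b had reads in WT ovary 1 alone, and Mir10a, Mir196a-2 and Mir196b had none.

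Hox proteins bind DNA together with cofactors of the TALE class, the Pbx, Meis and Pknox proteins, while Tgif proteins of the same class repress. All 11 genes of this list were tested, 1 was lower in MP tumors and 0 were higher (14.3% and 2.51% of all tested genes), and the median log2 fold change was -1.35 against -0.58 for all genes. Tgif1 was at 79.5, 76.5 and 66.6 TPM in WT ovaries and from 5.38 to 41.1 TPM in MP tumors with a median of 19.97. All MP tumors were below all WT ovaries, and the log2 fold change was -2.04 (SE 0.51, limma adjusted P = 0.013). Without WT ovary 1 or 3 Tgif1 was not called.

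Meis1, a partner of Hox proteins in many tissues, was at 8.89, 7.24 and 11.2 TPM in WT ovaries and from 0.0542 to 21.5 TPM in MP tumors with a median of 7.22, and 5 tumors were above and 5 below (log2 fold change -0.74, SE 0.94, adjusted P = 0.59). MP tumor 6 had Meis1 at 16.4 TPM and Meis2 at 27.5 TPM beside its near absence of Hox reads. Meis2 reached 31.2 and 33.4 TPM in MP tumors 8 and 9 against at most 6.91 TPM in WT ovaries. The other cofactors had limma adjusted P between 0.0555 (Meis3, log2 fold change -1.94, SE 0.66) and 0.89 (Pbx4).

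**Figure D5:**
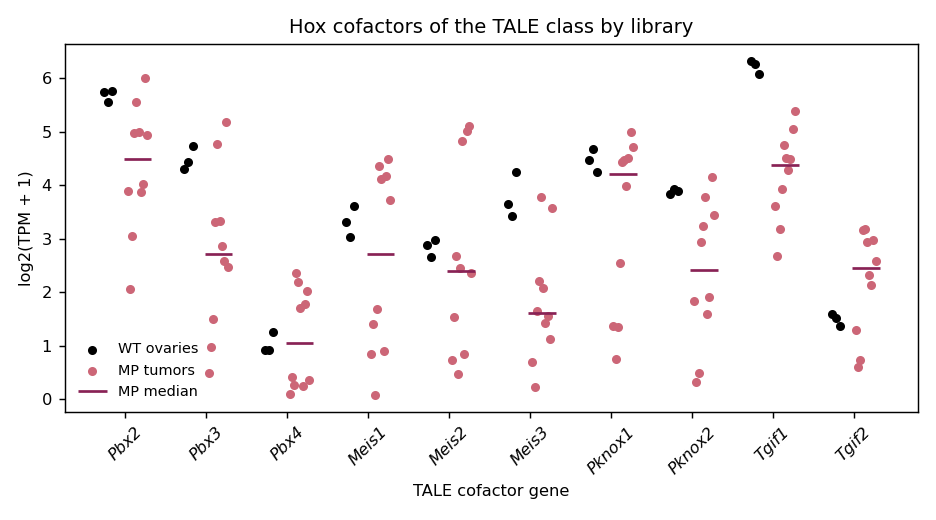
Levels of the TALE cofactor genes reported here as log2(TPM + 1), with 1 point per library for 3 WT ovaries (black) and 10 MP tumors (red) and a bar at the MP median. Tgif1 is the gene whose 10 tumors all lie under the WT ovaries and that passed the threshold with every library included, and Meis1 spreads widely among tumors.

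Of 13 tested genes that flank the 4 clusters 1 was lower and 0 were higher, a share near that of all tested genes (14.3% lower, 2.51% higher), with a median log2 fold change of -0.27 against -0.58 for all. That gene was Tax1bp1, an autophagy receptor gene near HoxA (99.9 TPM ± 7.46 in WT ovaries, SD, n = 3, and 15.8 to 70.7 TPM in MP tumors, log2 fold change -1.49, SE 0.41, limma adjusted P = 0.023). Next to HoxD, Mtx2 and Lnpk had log2 fold changes of 0.12 (SE 0.30, adjusted P = 0.80) and 0.26 (SE 0.41, adjusted P = 0.66). The Cdx genes, which switch on posterior Hox genes in the embryo, and the ParaHox genes stayed at or under 0.609 TPM, and of the even-skipped homologs at the cluster ends Evx1 reached 0.981 TPM in WT ovary 2 and Evx2 had no read. None of these 8 genes was tested.

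Of 11 tested partners in posterior and Müllerian patterning 3 were lower and 0 were higher, against 14.3% and 2.51% of all tested genes, with a median log2 fold change of -2.21 against -0.58 for all. Wnt4, a signal of the ovary and the Müllerian duct, was at 278, 188 and 318 TPM in WT ovaries and from 0 to 53.5 TPM in MP tumors (log2 fold change -5.65, SE 1.27, limma adjusted P = 0.0072), Wnt5a fell by 3.23 on the log2 scale (SE 0.80, adjusted P = 0.012) and Nr2f2 by 1.91 (SE 0.63, adjusted P = 0.049). Pax8, a gene of the oviduct epithelium, was at or under 0.133 TPM in WT ovaries and at 23.2 TPM in MP tumor 9, the next tumor being at 1.57 TPM. In the lists from cofactors to partners 5 genes were called lower in all, against 0 without WT ovary 1 or 3 and 1 without WT ovary 2.

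Markers of ovarian cell types were lower in MP tumors, where HoxD sums were also below all WT ovaries. The 6 granulosa, 5 theca and luteal and 6 oocyte markers summed to 3353 to 6277, 25024 to 28130 and 270.2 to 406 TPM in WT ovaries and to 4.54 to 1507, 7.44 to 824 and 1.38 to 22.6 TPM in MP tumors. Of the tested markers, 6 of 6, 4 of 5 and 6 of 6 were lower and 0 were higher, where 14.3% of all tested genes were lower and 2.51% higher, and Zp2 was at or under 0.210 TPM and Cyp19a1 at or under 0.183 TPM in every tumor. Other members were less depleted, with Gdf9 at 1.27 to 18.9 TPM and Foxl2 and Inha at up to 76.0 and 1430 TPM in tumors, all below all WT ovaries. Smooth muscle markers (3 of 4 lower), simple epithelium (3 of 5), endothelium (2 of 4), uterus and other Müllerian stroma (2 of 3), mesothelium and ovarian surface epithelium (2 of 6), fibroblasts (2 of 5) and oviduct epithelium (1 of 3) had fewer calls and none higher, and leukocytes (0 of 4), adipocytes (0 of 3) and kidney (0 of 1) had none in either direction. Their part in the Hox result was not tested.

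Marker sums of the tumors with high Hox clusters differed from each other. In MP tumor 9 fibroblast markers summed to 3369 TPM (WT ovaries 948 to 1651), although Pdgfra at 56.9 TPM was below all WT ovaries, mesothelium and surface epithelium markers to 850.3 TPM (285 to 323), although Upk1b at 29.6 TPM was below them, oviduct markers to 29.2 TPM (6.03 to 8.14) and Müllerian stroma markers to 107 TPM (106 to 113). In the oviduct list Pax8 made up 23.2 TPM of this and Sox17 was below all WT ovaries at 1.89 TPM. In the stroma list Hand2 and Ramp3, at 47.4 and 51.5 TPM, were above all WT ovaries and Tcf21, at 7.21 TPM, was below them (85.4 to 96.1 TPM). In MP tumor 8 fibroblast and mesothelium markers summed to 61.3 and 5.06 TPM, below all WT ovaries, so its HoxA and HoxC levels stood beside low sums of both lists. In MP tumor 5 fibroblast and mesothelium markers summed to 1565 and 289 TPM, within the WT range, although their members went both ways, with Col1a1 and Wt1 (949 and 163 TPM) above all WT ovaries and Dcn and Msln (118 and 0.374 TPM) below them, and kidney markers summed to 16.7 TPM against 2.12 to 4.69 TPM in WT ovaries. MP tumor 4, with Hoxc10 at 30.0 TPM, had the highest sum of simple epithelium markers (947 TPM), which came from the keratin genes Krt8 and Krt18 (425 and 496 TPM) while Epcam, Krt7 and Cdh1 (15.7, 9.01 and 1.38 TPM) were below all WT ovaries. Its mesothelium and surface epithelium markers summed to 370 TPM, above all WT ovaries. Krt19 made up 205 TPM of this, while Msln, Lrrn4 and Upk1b (10.6, 6.01 and 28.8 TPM) were below all WT ovaries. Its granulosa marker sum of 1507 TPM was the highest of the tumors and below all WT ovaries. MP tumor 6, with the fewest Hox reads, had sums of 70.7 TPM for fibroblasts and 26.3 TPM for mesothelium. The part of these cells in the Hox levels was not tested.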

How the data were processed

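RNA-seq libraries of 3 WT ovaries and 10 MP tumors were analyzed. The authors deposited 1 table of TPM values per gene and library, with identifier, coordinates and length, and replicates were not pooled. The labels' protocol describes Trimmomatic, STAR to a human build, HTSeq and RPKM, while the submitters' processing notes list FastQC 0.11.5, Trimmomatic 0.36, STAR 2.5.3a, featureCounts 1.6.3 and the builds mm10 and GRCm38. The table holds mouse genes, and all 39 members have the coordinates and exon length of GENCODE M21 (GRCm38), as 96.0% of all genes have the coordinates. Strand use in counting is not given in the sources used here. Columns were matched to samples by the labels' description, with 0 columns of other samples, and batches were read from a number code in it whose meaning is not stated. The labels number the libraries of a group without saying more of their origin, so P values measure the spread between these libraries.

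TPM multiplied by length fell on a grid of even steps in every library for 100% of values (tolerance 0.05 of a step), and the step was taken as 1 read to work back read numbers. Genes reaching 1 TPM in 3 or more libraries were tested on log2(TPM + 1), which understates changes of low genes, with limma 3.58.1 (trended, robust) in R 4.3.3 without covariates. The authors' gene-level test is not given in the sources used here. Pairs of libraries differed by more than sampling noise (chi-square per degree of freedom at least 25.8). Alternatives varied pseudocount, filter, scaling, batch, replicate block, limma options, unit, depth and single libraries. The scripts were tested on simulated data.

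The members and lists were chosen with earlier results of these data known. All members are described except 1, which, like 1 cofactor gene, is not reported here. Those with a WT mean of at least 10 TPM, past the threshold, or at 5 TPM or more in a tumor and above every WT ovary there are given in full. Other lists name members past the threshold, the other TALE cofactors, and genes picked after their values were seen (Pax8, Mtx2, Lnpk, the noncoding RNAs). Promoter windows and microRNAs came from RefSeq, and protein sequences were not used here. Python 3.11.15 with pandas 2.3.3 handled tables, scipy 1.17.1 gave the intervals and matplotlib 3.10.9 drew the figures.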

Additional observations from a re-analysis of the deposited data

Results flagged for a closer look

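Dixon's criterion at 95% was applied on the log2(TPM + 1) scale to 32 sets of tumor values, those of the members at 1 TPM or more in some tumor and of the 4 cluster sums. On TPM itself it would mark further members, Hoxa5 among them. In 5 sets 1 MP tumor lay far from the other 9. A rate of 1 in 20 would mark 1.6 of 32 sets if they were independent and normal. The filter, however, let members in through their high tumors, and the cluster sums reuse the members. Hoxa10, Hoxb3 and Hoxd3 reached 1 TPM in the marked tumor alone, so the 5 cannot be set against the 1.6. Hoxa9 was at 15.0 TPM in MP tumor 8, with 1.11 TPM in the next tumor. Hoxa10 was at 3.16 TPM in MP tumor 7, with 0.453 TPM in the next. Hoxb3 was at 2.79 TPM in MP tumor 5, with 0.539 TPM in the next. Hoxc10 was at 30.0 TPM in MP tumor 4, with 4.97 TPM in the next. Hoxd3 was at 1.62 TPM in MP tumor 9, with 0.614 TPM in the next, and 62.3% of the exon bases of Hoxd3 are shared with Hoxd4 and the gene Gm28230 together.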

How the results depend on the processing

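Hoxd9 and Hoxd10 were called lower under all 25 alternatives, with log2 fold changes from -5.88 to -3.99 and from -5.98 to -3.29 and adjusted P up to 0.022 and 0.024. No Hox gene was called higher under any. The number called lower, 2, became 3 with no filter on low values, where Hoxd11 was added (-0.90, limma adjusted P = 0.021), 3 with limma-voom, where Hoxd8 was added, 6 with batch as a covariate and 17 within batch 1, and ranged from 2 to 3 over single libraries left out. Over all genes the counts of 433 higher and 2463 lower became 894 and 8534 with batch as a covariate, 1112 and 9902 within batch 1, and 1879 and 4042 with limma-voom on the reads worked back. The higher count was 1274 with median-of-ratios scaling and 1904 with quantile normalization, and single libraries left out gave 65 to 637 higher and 604 to 3238 lower, and without WT ovary 1, 2 or 3 they were 80, 107 and 65 higher and 604, 679 and 683 lower. In the lists from cofactors to partners, 0 higher and 5 lower became 2 higher with median-of-ratios scaling, 3 with quantile normalization and 2 with limma-voom, and 8 lower without a filter, 22 with batch as a covariate, 26 within batch 1 and 11 with limma-voom. Single libraries left out gave 0 to 1 higher and 0 to 7 lower. The causes were not tested.

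Direction was not stable for members near 0. Hoxa5 (0.14) turned to -0.83 and -0.091 with pseudocounts of 0.1 and 0.5, -1.08 with batch as a covariate and within batch 1, -0.57 with limma-voom, -0.38 without MP tumor 8 and -0.084 without MP tumor 9, and single libraries left out gave -0.38 to 0.29. Hoxb8 (0.21) turned to -0.32 with a pseudocount of 0.1, -0.63 with batch as a covariate and within batch 1, and -0.026 with limma-voom. Hoxa4 turned to 0.012 with median-of-ratios scaling, and with quantile normalization Hoxa4, Hoxa7, Hoxb6, Hoxb9, Hoxc4, Hoxc9 and Hoxd4 turned to 0.31, 0.050, 0.28, 0.32, 0.060, 0.26 and 0.035, which left 9 of 18 members negative. Median-of-ratios scaling left 15 negative and moved the median of all genes from -0.58 to -0.02. The mean number of members at 1 TPM in WT ovaries, 17, was 23.3 at 0.5 TPM, 11 at 5 TPM and 15.3 after median-of-ratios scaling. That scaling took the mean WT sums of HoxA, HoxB, HoxC and HoxD to 5.21, 14.5, 69.5 and 114 TPM, and thinning took HoxB to 19.1 TPM. Thinning every library to 3892690 reads left 17.7 WT and 11.4 MP members at 1 TPM.

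Replicate numbers are shared by WT ovaries and MP tumors 1 to 3, which are different mice, and the deviations of same-numbered libraries correlated at -0.096, -0.021 and 0.0012, so the numbers did not pair them. With a replicate block 17 Hox genes, 27 list genes, 9838 of all genes were called lower and 1095 of all higher, and Hoxa5 and Hoxb8 were at -1.08 and -0.63. Depth limits low members most in the shallow tumors, where 3 reads in a gene of 1 kb equal up to 2.37 TPM.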
